A study of Mus musculus with 6 samples.

Results

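The genes described here encode the enzymes that put double bonds into fatty acids and lengthen them: the stearoyl-CoA desaturases Scd1, Scd2 and Scd3, the elongases Elovl1, Elovl4, Elovl5 and Elovl6, and the front-end desaturases Fads1, Fads2 and Fads3. These 10 genes were chosen by symbol from the 27365 genes of the array table, and each was represented by the transcript cluster that had the highest mean over the 6 arrays among those whose probes are annotated as specific (cross-hybridisation type 1). The samples were primary mouse adipocytes of the inguinal depot, a subcutaneous white fat, differentiated in culture. In 3 samples the cells received 50 µM kynurenic acid, a tryptophan breakdown product made from kynurenine, for 12 h, and in the other 3 they received PBS for 12 h. All 6 were hybridised to Affymetrix whole-transcript arrays. By their titles the replicates are technical, and separate cultures or animals are not mentioned. A p-value or an interval here therefore reflects the scatter among these 6 arrays and no more. Strain, sex and number of animals are not given in the sources used here.

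A stearoyl-CoA desaturase places a double bond in the middle of a saturated acyl chain, which turns palmitate and stearate into palmitoleate and oleate, the main monounsaturated fatty acids of stored triglyceride. Elongases perform the condensing step of a cycle in the endoplasmic reticulum that adds carbons to an acyl-CoA, and the front-end desaturases insert further double bonds into linoleic and alpha-linolenic acid on the way to arachidonic acid and related polyunsaturated acids. In white fat, Scd1 and Elovl6 act directly downstream of fatty acid synthase and are known targets of SREBP-1 and of insulin. Kynurenic acid is a reported ligand of the receptor Gpr35, which signals through G proteins, and of the aryl hydrocarbon receptor, a transcription factor.

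Several of these genes are neighbours. On the mm10 genome, as annotated with the array, Scd3 (44203269 to 44244016, plus strand), Scd2 (44293676 to 44306868, plus strand), Scd4 and Scd1 (44394450 to 44407709, minus strand) lie within 204.4 kb of chromosome 19. Fads3 (10041548 to 10059671, plus strand), Fads2 (10064164 to 10101503, minus strand) and Fads1 (10182888 to 10196874, plus strand) lie within 155.3 kb of the same chromosome. Elovl1 is on chromosome 4 (118428093 to 118432953, plus strand) and Elovl6 on chromosome 3 (129532386 to 129638495, plus strand). Elovl4 (83778692 to 83806305, minus strand) and Elovl5 (77917364 to 77984519, plus strand) are both on chromosome 9. Each cluster spans the gene and summarises 14 (Scd1) to 28 (Elovl4 and Elovl5) probes placed along its transcript.

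Promoter windows from RefSeq (build GRCm38.p6, 250 bases before to 50 after a transcript start) were used for 7 of the 10 genes, with 8 windows because Elovl1 has 2. No window was used here for Scd1, Scd2 and Fads1. Windows are shown because the treatment is a reported ligand of a transcription factor with a known recognition core, and because desaturase and elongase genes are known for control by SREBP-1 together with NF-Y. The upstream bases of 3 windows follow, 5′ to 3′ on the strand of the gene. Capitals mark the E-box CACGTG and the CCAAT box, which appears as ATTGG where it lies on the opposite strand. Elovl5 holds both motifs, Fads3 a pair of CCAAT boxes, and Elovl6 none of the motifs searched.
Elovl5, chr9:77917115-77917364, plus strand: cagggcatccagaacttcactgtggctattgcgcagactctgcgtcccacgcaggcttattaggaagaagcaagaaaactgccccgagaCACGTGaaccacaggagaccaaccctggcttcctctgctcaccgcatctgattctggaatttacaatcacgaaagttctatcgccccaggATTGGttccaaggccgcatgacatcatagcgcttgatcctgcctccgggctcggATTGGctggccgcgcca
Fads3, chr19:10041298-10041547, plus strand: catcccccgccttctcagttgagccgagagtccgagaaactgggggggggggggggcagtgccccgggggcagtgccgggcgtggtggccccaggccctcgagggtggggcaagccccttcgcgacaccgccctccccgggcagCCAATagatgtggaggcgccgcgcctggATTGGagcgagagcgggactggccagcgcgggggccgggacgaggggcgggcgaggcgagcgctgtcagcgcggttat
Elovl6, chr3:129532136-129532385, plus strand: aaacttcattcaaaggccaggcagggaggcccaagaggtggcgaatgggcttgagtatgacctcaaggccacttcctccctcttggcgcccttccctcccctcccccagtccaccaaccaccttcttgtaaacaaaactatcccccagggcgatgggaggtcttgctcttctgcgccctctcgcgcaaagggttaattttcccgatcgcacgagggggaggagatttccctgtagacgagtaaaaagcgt

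Over the full windows and on both strands, 5 motifs were searched, and no matches overlapped one another. The CCAAT box, bound by NF-Y, was found in 4 of the 8 windows (Elovl1, Elovl4, Elovl5 and Fads3), against 37.4% of all 32851 promoter windows. The E-box CACGTG was found in 2 (Elovl4 and Elovl5), against 7.15% of all windows. TGACGTCA, the cAMP response element, was found in 1, just after the start of Elovl5, against 1.79%. The aryl hydrocarbon receptor core TNGCGTG was found in 0 of the 8, against 5.07% of all windows, and the sterol response element core CACCCCAC in 0, against 2.87%. These are letter matches in short windows and say nothing about whether a factor binds there.

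Arrays correlated at 0.992 to 0.996 with each other across genes. Of 10 adipocyte markers 9 were measured, all above background in all 6 arrays. Background here is the mean over the antigenomic probe sets of the same array, which match no mouse transcript. The array means of the adipocyte list were 10.18 to 10.19 log2 with kynurenic acid and 10.23 to 10.26 log2 with PBS, without overlap. Macrophage markers were present too, at list means of 7.28 to 7.54 log2 with kynurenic acid and 7.33 to 7.64 log2 with PBS. Of 5 brown or beige adipocyte markers 2 were above background in all 6 arrays (Ppargc1a and Elovl3), with list means of 5.12 to 5.27 log2 with kynurenic acid and 5.12 to 5.21 log2 with PBS. Preadipocyte and fibroblast markers had list means of 6.60 to 6.74 log2 with kynurenic acid and 6.61 to 6.67 log2 with PBS. Epithelial and sebaceous markers had list means of 4.54 to 4.58 log2 with kynurenic acid and 4.50 to 4.51 log2 with PBS, without overlap. At an unadjusted limma p below 0.05 stood 2 of these 7, against 9.69% of all genes. These 2, Krt18 and Cdh1, stood 0.28 and 0.39 log2 above background with kynurenic acid, and 0.24 and 0.36 log2 with PBS. Their log2 changes were 0.19 and 0.18, and those of Krt5, Krt14 and Epcam were 0.11, 0.067 and 0.19. Mc5r and Krt8 went the other way, at -0.26 and -0.06. Mc5r, the brightest of the list, stood 3.54 log2 above background with kynurenic acid and 3.96 log2 with PBS. The background mean itself was 0.15 log2 higher with kynurenic acid. Endothelial markers, of which 2 of 7 were above background in all 6 arrays, had list means of 3.98 to 3.99 log2 with kynurenic acid and 3.80 to 3.85 log2 with PBS, again without overlap. Of these 7, 1 stood at an unadjusted limma p below 0.05, against 9.69% of all genes. It was Cdh5, with a log2 change of 0.51 (limma adjusted p = 0.472). In these bulk samples fewer cells of a type and less RNA per cell cannot be told apart, and the part of other cell types in the values below was not tested.

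No difference between kynurenic acid and PBS was detected in any of the 10 desaturase and elongase genes, from Scd1 and Elovl6 at the start of unsaturated fat synthesis to the Fads genes of the polyunsaturated branch. In limma's test, 0 of 10 passed at an adjusted p below 0.05, where 0% of all 27365 genes passed, with a smallest adjusted p of 0.580 among the 10. At an unadjusted limma p below 0.05 there were also 0 of the 10, against 9.69% of all genes (2653 genes), and the methods' t-test gave 0 of the 10 as well. In 0 of the 10 were the kynurenic acid arrays free of overlap with the PBS arrays, against 14.7% of all genes. The median log2 change of the 10 was 0.0033, with 5 above 0, 4 below 0 and 1 at 0, and that of all genes was 0.0067. The median absolute log2 change was 0.053 for the 10 genes and 0.087 for all genes. For the 874 genes with a mean of 9 log2 or more, a range that holds 7 of the 10, it was 0.070. These medians are descriptions, since the genes were chosen with earlier results of these data known.

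**Figure D1:**
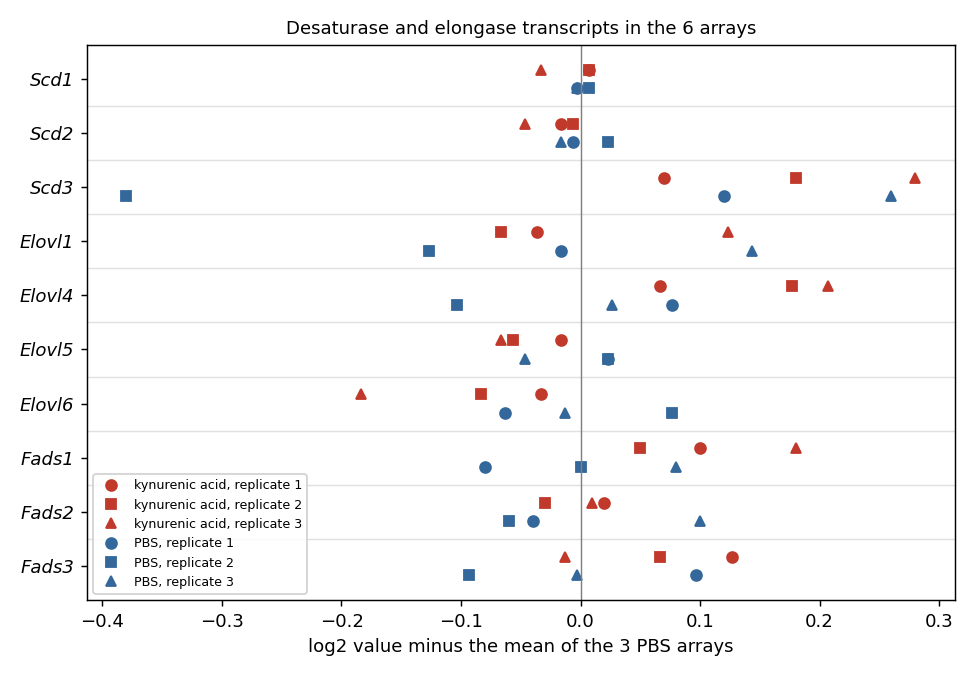
Log2 value of each desaturase and elongase transcript in each of the 6 arrays, as the difference from the mean of the 3 PBS arrays (x axis), with kynurenic acid arrays in red above PBS arrays in blue and a marker shape per replicate number. The kynurenic acid and PBS points overlap for all 10 genes, and the point farthest out is PBS replicate 2 for Scd3.

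Scd1, the main desaturase of mouse white fat, gave the tightest measurement of the set. It measured 12.60, 12.60 and 12.56 log2 in kynurenic acid arrays 1, 2 and 3, against 12.59, 12.60 and 12.59 log2 in PBS arrays 1, 2 and 3. All 6 values lay within 0.04 log2 of one another. The log2 change was -0.0067 with a 95% interval from -0.17 to 0.15 (limma adjusted p = 0.984), or 0.890-fold to 1.11-fold. The highest value of any cluster on these arrays was 13.18 log2, so Scd1 was read near the top of the scale, and whether probes this bright still respond in proportion was not tested.

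Scd2, a closely related desaturase best known from brain and developing tissue in the mouse, was also read with little spread. Its values were 12.27, 12.28 and 12.24 log2 with kynurenic acid and 12.28, 12.31 and 12.27 log2 with PBS. Its log2 change was -0.023 with an interval from -0.18 to 0.14 (limma adjusted p = 0.933). The Scd2 symbol covers 8 clusters, and the other 7 are short sequence records whose probes also match other transcripts. One of these, with 8 probes over 61 bases, averaged 12.34 log2 with kynurenic acid and 12.25 log2 with PBS, a log2 change of 0.083 (limma adjusted p = 0.734). The remaining 6, of 25 probes each, hold only 4 distinct sets of values and read 7.83 to 8.16 log2 with kynurenic acid against 7.71 to 8.19 log2 with PBS. Their log2 changes were 0.057 to 0.077, with limma adjusted p-values of 0.861 to 0.900, in a fit with every cluster as its own row. No Scd2 cluster separated the groups by the test, although the specific cluster and the other 7 fell on opposite sides of 0.

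Scd3, the member of the family known from mouse skin and its sebaceous glands, gave the most variable values of the 10. It measured 5.48, 5.59 and 5.69 log2 with kynurenic acid, against 5.53, 5.03 and 5.67 log2 with PBS. PBS array 2 stood apart from the other 5 arrays, which ran from 5.48 to 5.69 log2. The log2 change was 0.18 with an interval from -0.17 to 0.52 (limma adjusted p = 0.718). Without PBS replicate 2 it was -0.013.

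Elovl6, which extends palmitate to stearate and so supplies the substrate of the Scd enzymes, had the lowest log2 change of the 10. Its values were 11.21, 11.16 and 11.06 log2 with kynurenic acid and 11.18, 11.32 and 11.23 log2 with PBS. Kynurenic acid array 1 lay inside the PBS range and the other kynurenic acid arrays below it. The log2 change was -0.10 with an interval from -0.28 to 0.083 (limma adjusted p = 0.700). A lowering beyond 0.822-fold lies outside that interval.

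Elovl5, the elongase of polyunsaturated chains, measured 9.78, 9.74 and 9.73 log2 with kynurenic acid and 9.82, 9.82 and 9.75 log2 with PBS. The log2 change of Elovl5 was -0.047 with an interval from -0.21 to 0.12 (limma adjusted p = 0.854), and its standard deviations were 0.026 log2 with kynurenic acid and 0.040 log2 with PBS (n = 3 each). Elovl1, which makes very long saturated and monounsaturated chains used in sphingolipids, measured 7.86, 7.83 and 8.02 log2 with kynurenic acid and 7.88, 7.77 and 8.04 log2 with PBS. Array 2 was the lowest and array 3 the highest in each group, and the change of 0.0067 (interval -0.21 to 0.22, limma adjusted p = 0.986) was far inside that spread. Elovl1 turned below 0, to -0.03, when arrays were centred on their medians.

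Elovl4, the elongase of the ultra-long chains of retina and skin, was read nearest to background. It measured 4.50, 4.61 and 4.64 log2 with kynurenic acid and 4.51, 4.33 and 4.46 log2 with PBS. The kynurenic acid arrays 2 and 3 lay above all PBS arrays, and array 1 fell inside the PBS range. The log2 change was 0.15 with an interval from -0.040 to 0.34 (limma adjusted p = 0.580, unadjusted p = 0.107). The background differed between the groups as well. The 23 antigenomic probe sets, whose sequences match no mouse transcript, averaged 3.76 to 3.91 log2 in the kynurenic acid arrays and 3.58 to 3.76 log2 in the PBS arrays, a difference of 0.15 between the means. Of the 23 sets, 21 were higher with kynurenic acid, and their median difference was 0.09. The brightest single set read 6.93 to 7.26 log2 in the kynurenic acid arrays and 6.52 to 6.89 log2 in the PBS arrays. All Elovl4 and Scd3 values lay below it, so a value above the background mean is not by itself a detection. Measured from the mean background of its own array, Elovl4 stood 0.734 log2 above it with kynurenic acid and 0.736 log2 above it with PBS. Scd3 likewise stood 1.74 log2 above background with kynurenic acid and 1.71 log2 with PBS. The same subtraction shifts every gene by the background difference, bright genes included. It put Scd1 at 8.74 log2 above background with kynurenic acid and 8.90 log2 with PBS. Fads2, with a log2 change of 0, stood at 5.65 log2 with kynurenic acid and 5.80 log2 with PBS. Over all genes, the median log2 change was 0.033 for the 4585 genes between 4 and 5 log2, the range of Elovl4. It was -0.023 for the 3410 genes between 5 and 6 log2, the range of Scd3, and -0.053 for the 5060 genes between 6 and 8 log2. The part of the background in the Elovl4 and Scd3 values was not tested further.

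**Figure D2:**
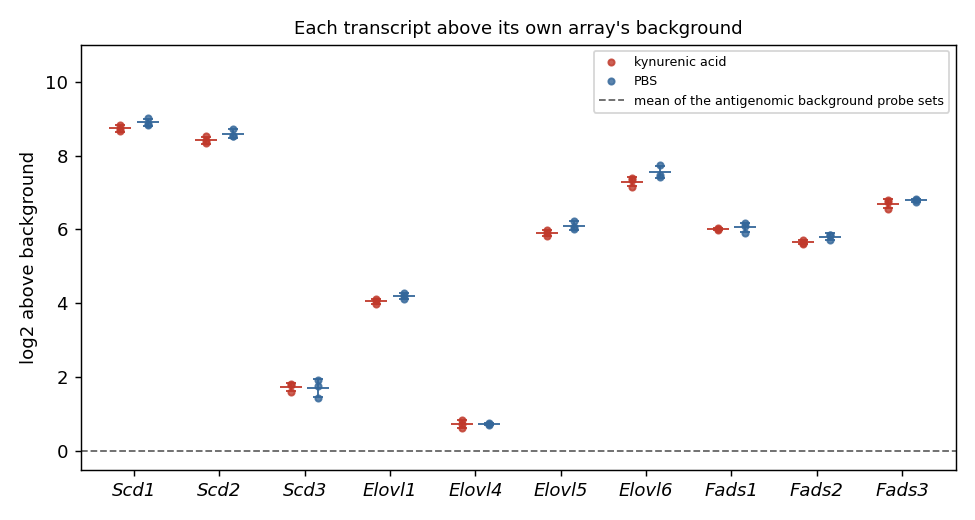
Log2 distance of each transcript from the antigenomic background mean of the same array (y axis), with kynurenic acid in red left of PBS in blue; small points are arrays, and horizontal ticks with error bars are means ± SD (n = 3 each). Elovl4, at 0.734 with kynurenic acid and 0.736 with PBS, and Scd3, at 1.74 with kynurenic acid and 1.71 with PBS, lie nearest to the dashed background line, and the other 8 genes lie clearly above it.

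Among the front-end desaturases, Fads1, which completes the synthesis of arachidonic acid, had the highest log2 change. It measured 9.85, 9.80 and 9.93 log2 with kynurenic acid and 9.67, 9.75 and 9.83 log2 with PBS. PBS array 3 lay above kynurenic acid array 2, so the groups overlapped. Its log2 change was 0.11 with an interval from -0.073 to 0.29 (limma adjusted p = 0.668). Fads2, which catalyses the entry step from linoleic and alpha-linolenic acid, averaged 9.50 ± 0.026 log2 with kynurenic acid and 9.50 ± 0.087 log2 with PBS (SD, n = 3 each). Its change of 0 had an interval from -0.18 to 0.18 (limma adjusted p = 1), or 0.884-fold to 1.13-fold.

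Fads3, the least studied member of the trio and reported to act on sphingoid bases, measured 10.61, 10.55 and 10.47 log2 with kynurenic acid and 10.58, 10.39 and 10.48 log2 with PBS. Its log2 change was 0.06 with an interval from -0.13 to 0.25 (limma adjusted p = 0.836). The specific cluster was the only one under each of the 9 symbols other than Scd2. The 3 Fads genes, neighbours on chromosome 19, thus had log2 changes of 0.11, 0 and 0.06, none of them past the test.

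Among the genes with a mean of 9 log2 or more, limma's 95% intervals differed little in width. Their within-group standard deviations differed more, from 0.0058 log2 (Scd1 with PBS) to 0.095 log2 (Fads3 with PBS). Over all 10 genes these standard deviations reached 0.34 log2 (Scd3 with PBS). The 95% intervals reached 0.16 log2 to either side for the most precise gene and 0.34 for Scd3, against a median of 0.21 over all genes. The limma fit draws each gene's variance towards a value pooled over all genes. An interval is therefore not set by that gene's own scatter alone. PBS array 2 held the lowest value of 5 of the 10 genes, and kynurenic acid array 3 the lowest of 4 others. Leaving out PBS replicate 2 turned the log2 changes of Elovl1 and Scd3 below 0, to -0.057 and -0.013, and left 0 of the 10 past the test.

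**Figure D3:**
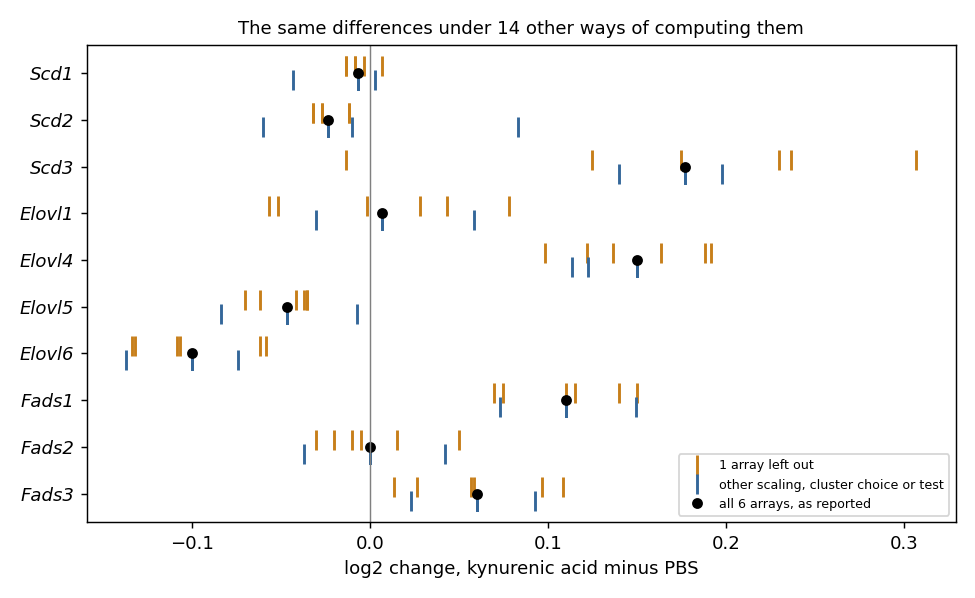
Log2 change of each gene, kynurenic acid minus PBS (x axis), with all 6 arrays (black points), with 1 array left out at a time (orange ticks) and under other scalings, cluster choices or tests (blue ticks). Scd3 spreads from -0.013 to 0.31 with single arrays left out, and Scd2 reaches 0.083 when its brightest cluster of any cross-hybridisation type is taken.

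The other desaturases and elongases of the mouse were read beside the 10. Of these 7 genes 0 passed limma's adjusted test, while at an unadjusted p below 0.05 stood 1 on the higher side and 0 on the lower side, against 4.69% and 5% of all genes. Their log2 changes ran from -0.087 to 0.28 with a median of 0.12. Fads6, a desaturase-like gene whose substrate is not settled, was the 1. It measured 5.43, 5.42 and 5.27 log2 with kynurenic acid against 5.23, 5.02 and 5.02 log2 with PBS, without overlap. Its log2 change was 0.28 with an interval from 0.077 to 0.49 (limma adjusted p = 0.475, unadjusted p = 0.0125). Fads6 stood 1.52 log2 above the background mean with kynurenic acid and 1.39 log2 with PBS, and below the brightest antigenomic set of each array.

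Elovl3, an elongase known for its induction in brown fat by cold, varied more between arrays of a group than between groups. It measured 8.0, 8.54 and 8.34 log2 with kynurenic acid and 8.34, 7.84 and 8.32 log2 with PBS, a log2 change of 0.13 (limma adjusted p = 0.824) that became -0.037 without PBS replicate 2. Scd4, the heart-enriched desaturase between Scd2 and Scd1, and Elovl7 read below background in all 6 arrays, which leaves their values without a measured level above it. Elovl2, needed for the longest polyunsaturated chains, had a log2 change of 0.0033, and the ceramide-pathway desaturases Degs1 and Degs2 had -0.087 and 0.12 (limma adjusted p = 0.992, 0.733 and 0.817 in that order). Elovl2 turned below 0 under both scaling alternatives. It stood 0.46 log2 above the background mean with kynurenic acid and 0.61 log2 with PBS. Degs2 stood 0.42 log2 above it with kynurenic acid and 0.45 log2 with PBS.

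The elongases need 3 further enzymes to finish each cycle, and of the 6 genes listed for these steps 5 were measured (Ptplb was not analysed here). None passed limma's adjusted test, while at an unadjusted p below 0.05 stood 0 on the higher side and 1 on the lower side, against 4.69% and 5% of all genes. Hsd17b12, the ketoacyl-CoA reductase of the cycle, measured 9.94 log2 in kynurenic acid array 1 and 10 log2 in kynurenic acid arrays 2 and 3, against 10.02, 10.08 and 10.08 log2 with PBS. The groups did not overlap, and the log2 change was -0.08 (interval -0.25 to 0.085, limma adjusted p = 0.736). Ptplad2, now named Hacd4, of the dehydratase family, was that gene, at 4.75, 4.89 and 4.77 log2 with kynurenic acid and 5.10, 5.02 and 5.21 log2 with PBS. It differed by -0.31 log2 (interval -0.50 to -0.12, limma adjusted p = 0.472, unadjusted p = 0.0055), without overlap. The dehydratase genes Ptpla (Hacd1) and Ptplad1 (Hacd3) had log2 changes of 0.01 and -0.18, and Tecr, the reductase that closes the cycle, had 0.03 (limma adjusted p = 0.975, 0.614 and 0.924 in that order).

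Desaturases draw electrons from cytochrome b5 and its reductases, and of these 6 genes 0 passed the adjusted test, while at an unadjusted p below 0.05 stood 0 on the higher side and 1 on the lower side, against 4.69% and 5% of all genes. Cyb5b, the cytochrome b5 form of the mitochondrial outer membrane, was the 1. It measured 9.53, 9.79 and 9.48 log2 with kynurenic acid, against 9.87, 10.04 and 9.82 log2 with PBS, and array 2 was the highest in each group. All kynurenic acid arrays lay below all PBS arrays, with a log2 change of -0.31 (interval -0.55 to -0.073, limma adjusted p = 0.475, unadjusted p = 0.016). Cyb5 (now Cyb5a), the microsomal form, differed by -0.077 log2 (interval -0.27 to 0.11, limma adjusted p = 0.784). Cyb5r3, the main reductase of cytochrome b5, differed by 0.03 (limma adjusted p = 0.917).

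**Figure D4:**
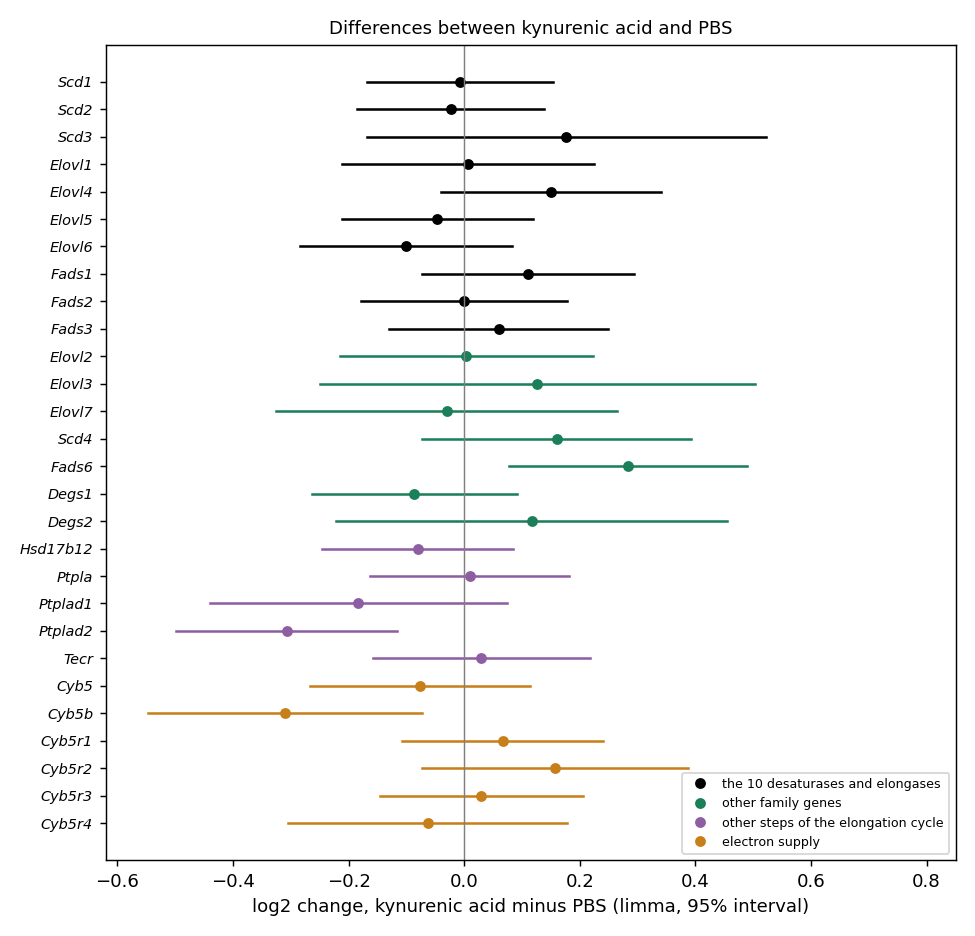
Log2 change, kynurenic acid minus PBS (x axis), with the 95% interval of the limma fit for the 10 desaturases and elongases (black), other genes of these families (green), other enzymes of the elongation cycle (purple) and the electron supply (orange). All 10 black intervals cross 0, and those of Fads6, Ptplad2 and Cyb5b do not, although none of these passes after adjustment over all genes.

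Genes that supply the acyl chains or control these enzymes were counted as a further list, of which 15 of 16 were measured (Nr1h3 was not analysed here). Of the 15, 0 passed limma's adjusted test, and the median log2 change was 0.057. At an unadjusted p below 0.05 stood 1 on the higher side and 0 on the lower side, against 4.69% and 5% of all genes. In 6 of the 15 the groups did not overlap, against 14.7% of all genes, and of these 4 were higher with kynurenic acid and 2 lower, against 7.14% and 7.58% of all genes. The 4 were Acacb, Srebf1, Fasn and Mlxipl (log2 change 0.15), and the 2 were Insig1 (-0.14) and Mid1ip1 (-0.05, and 0.0012 after cyclic loess), with Mlxipl, Insig1 and Mid1ip1 named after their values were seen. Srebf1, which encodes SREBP-1, the activator of Scd1, Elovl6 and the Fads genes, measured 8.75, 8.74 and 8.80 log2 with kynurenic acid against 8.70, 8.46 and 8.63 log2 with PBS. Its log2 change was 0.17 (interval -0.027 to 0.36, limma adjusted p = 0.557). Fasn, the fatty acid synthase whose palmitate the elongases and desaturases use, measured 12.43, 12.38 and 12.40 log2 with kynurenic acid and 12.32, 12.25 and 12.28 log2 with PBS, a log2 change of 0.12 (limma adjusted p = 0.606). Acacb, the acetyl-CoA carboxylase form that restrains fatty acid oxidation, was the 1 gene at an unadjusted p below 0.05, with a log2 change of 0.31 (limma adjusted p = 0.472).

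The last list held genes that activate fatty acids or place them in lipids. None of its 10 genes passed limma's adjusted test, where 0% of all genes did, and 0 stood at an unadjusted p below 0.05, against 9.69% of all genes. The median log2 change was -0.028. Acsl5, an acyl-CoA synthetase, measured 7.66, 7.58 and 7.36 log2 with kynurenic acid and 7.77, 7.65 and 7.73 log2 with PBS, a change of -0.18 (limma adjusted p = 0.557). Soat1, which esterifies cholesterol with unsaturated acyl chains, had a log2 change of -0.16 (limma adjusted p = 0.684). In both genes the groups overlapped. Over the whole list, the groups did not overlap in 1 of the 10, with kynurenic acid lower, against 14.7% of all genes in either direction.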

How the data were processed

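RNA of 3 kynurenic acid and 3 PBS samples was measured on arrays. The authors computed log2 values by RMA (background subtraction, quantile normalization, median polish), per the file headers, in Affymetrix Expression Console 1.41, per the submitters' processing notes, and deposited them with 2 decimals. Quantile normalization removes a shift shared by most transcripts. Annotation was NetAffx build 34 on mm10, per the file headers. Both deposited tables held the same values (largest difference 0), and the authors' own test columns were not used.

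Of 41345 clusters, 29726 had a symbol. For each of 27365 symbols the specific cluster with the highest mean was kept, or the brightest of any type for the 1751 symbols without one. Symbols are those of the array. Kynurenic acid minus PBS was tested with limma 3.58.1 in R 4.3.3 (lmFit and eBayes, two-sided, no covariates, Benjamini-Hochberg over all genes, threshold 0.05). The fit was also run on simulated arrays with independent noise. That run cannot show how the fit behaves with technical replicates or with a background that differs between groups. Precision is limited by the number of arrays. Other settings were an intensity trend, median centring, cyclic loess, a filter at the 40th percentile, other cluster choices, the methods' t-test (Student's, 4 degrees of freedom), the replicate number as a block, and each array left out. Same-numbered arrays deviated together at r = 0.037, 0.065 and 0.093 across genes, so the numbers were not treated as pairs.

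The 10 genes are all named. From the first 3 pathway lists any gene could be named, and from the last 2 lists the 2 with the largest absolute change above background, with Srebf1 and Fasn. Mlxipl, Insig1 and Mid1ip1 were named outside this rule, after their values were seen, because their groups did not overlap. Members and lists were chosen with earlier results of these data known.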

Additional observations from a re-analysis of the deposited data

How the results depend on the processing

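Over the 14 alternatives, limma or the methods' t-test called 0 genes in each, with smallest adjusted p-values between 0.231 and 0.699, the ends being the fits that left out kynurenic acid array 2 and array 3. Of 140 values for the 10 genes, 0 passed the adjusted test, 0 reached an unadjusted p below 0.05, and 8 changed sign. The median log2 change of the 10, 0.0033 as reported, was -0.033 with arrays centred on their medians, 0.050 after cyclic loess and 0.033 with the brightest cluster of any cross-hybridisation type. With single arrays left out it ran from -0.013 to 0.054. Signs turned with median centring for Elovl1 (-0.03), Elovl2 (-0.033), Ptpla (-0.027), Tecr (-0.0067) and Cyb5r3 (-0.0067). They turned after cyclic loess for Scd1 (0.0028), Elovl2 (-0.033) and Mid1ip1 (0.0012), and with the brightest cluster for Scd2 (0.083). With single arrays left out, the ranges that crossed 0 were -0.013 to 0.0067 for Scd1, -0.013 to 0.31 for Scd3, -0.057 to 0.078 for Elovl1, -0.062 to 0.083 for Elovl2, -0.037 to 0.27 for Elovl3, -0.19 to 0.075 for Elovl7, -0.03 to 0.05 for Fads2, -0.02 to 0.26 for Degs2, -0.032 to 0.038 for Ptpla, -0.015 to 0.08 for Tecr and -0.013 to 0.067 for Cyb5r3. The cause was not tested. Acacb, Fads6 and Ptplad2 stood at an unadjusted p below 0.05 in all 14, and Cyb5b in 10. Mlxipl did so in 3, Srebf1 and Fasn in 2 each, and Hsd17b12, Insig1, Mid1ip1, Acsl5 and Ptplad1 in 1 each. Of these 8, the methods' t-test gave unadjusted p = 0.0086 for Fasn, 0.0264 for Mlxipl, 0.0376 for Mid1ip1 and 0.0474 for Hsd17b12. None passed after adjustment. With the replicate block, 0 genes passed (smallest adjusted p 0.404), the median of the 10 genes was 0.0033, and 2893 genes stood at an unadjusted p below 0.05. Every array deviated most like its own number (r = 0.037, 0.065 and 0.093), a hint from the data and not from the design. Background correction could not be varied from RMA values, and Scd4 and Elovl7 were below background.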
